A study of Mus musculus with 16 samples.

Results

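Transcripts of 9 genes that mark T and B lymphocytes were followed in inguinal white adipose tissue, a fat pad under the skin of the mouse groin. The members were taken by symbol from the deposited table, where each of the 9 had a row among 16091 genes, and that rule used no measured value. Of these, 6 mark T cells (Cd3d, Cd3e, Cd3g, Cd4, Cd8a and Lck) and 3 mark B cells (Cd79a, Cd79b and Ms4a1). Poly-A RNA of C57BL6/J mice was sequenced in 16 libraries, 4 in each of 4 groups. On each of 2 diets, control and high-fat, 1 group was left untreated and 1 received an antibody against PDGFcc. PDGFcc is a ligand of the platelet-derived growth factor family. That reagent (AF1447) was injected into the peritoneum of mice 6 weeks old every 2 days over 2 weeks, at a dose of 50 mg/kg in PBS (100 µl). No group carried a transgene or a deleted gene per the labels. The labels give neither the length of the diets nor any control injection of untreated mice. Nothing in the labels ties each library to an animal of its own, so the p-values below reflect spread between samples that may be partly technical.

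T cells recognise peptides through the T cell receptor, whose signal is passed on by the CD3 chains and started by the kinase Lck. CD4 and CD8 are the co-receptors that bind Lck and separate helper from cytotoxic T cells. B cells recognise antigen through membrane immunoglobulin, which signals through the CD79a and CD79b chains, and carry CD20, the product of Ms4a1. Fat holds resident and circulating lymphocytes among its adipocytes, progenitors and macrophages, and the inguinal pad surrounds a lymph node. Cd4 is also transcribed in some dendritic cells and macrophages, and Cd8a in some dendritic cells and natural killer cells.

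The 3 CD3 genes lie together on chromosome 9 (GRCm38): Cd3g at 44969572 to 44980431, Cd3d at 44981786 to 44987339 and Cd3e at 44998740 to 45009627. Cd3d and Cd3g point away from each other, with RefSeq starts 1355 bases apart, and Cd3e starts 27825 bases from Cd3d. Cd79a, for the B cell receptor, lies on chromosome 7 at 24897381 to 24902197. The 250 bases before the RefSeq start of these 4 genes (GRCm38.p6) are shown because the CD3 genes varied together over libraries while Cd79a varied with the B cell genes. Whether these stretches have a part in that variation was not tested. Capitals mark each match, on either strand, of CAGGTG, an E-box hexamer of the kind that lymphoid E proteins bind, or of AGGAAG, a core of ETS-family sites. The stretches were at chr9:44981536-44981785 (plus strand), chr9:44980432-44980681 (minus), chr9:45009612-45009861 (minus) and chr7:24897247-24897496 (plus), in the order below.
Cd3d: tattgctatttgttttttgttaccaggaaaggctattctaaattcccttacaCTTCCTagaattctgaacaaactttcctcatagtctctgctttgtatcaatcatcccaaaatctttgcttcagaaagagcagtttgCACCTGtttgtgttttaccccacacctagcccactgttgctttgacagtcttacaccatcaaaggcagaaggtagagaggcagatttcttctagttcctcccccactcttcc
Cd3g: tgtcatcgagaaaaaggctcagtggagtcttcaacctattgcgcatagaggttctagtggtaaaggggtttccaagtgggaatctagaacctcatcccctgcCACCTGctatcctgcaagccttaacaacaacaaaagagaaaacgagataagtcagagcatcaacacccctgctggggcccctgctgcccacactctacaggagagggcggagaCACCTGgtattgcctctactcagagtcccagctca
Cd3e: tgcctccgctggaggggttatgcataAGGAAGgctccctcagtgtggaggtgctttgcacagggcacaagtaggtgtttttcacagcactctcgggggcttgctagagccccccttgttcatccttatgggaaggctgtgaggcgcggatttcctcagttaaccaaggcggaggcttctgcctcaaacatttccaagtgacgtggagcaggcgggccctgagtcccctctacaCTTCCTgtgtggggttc
Cd79a: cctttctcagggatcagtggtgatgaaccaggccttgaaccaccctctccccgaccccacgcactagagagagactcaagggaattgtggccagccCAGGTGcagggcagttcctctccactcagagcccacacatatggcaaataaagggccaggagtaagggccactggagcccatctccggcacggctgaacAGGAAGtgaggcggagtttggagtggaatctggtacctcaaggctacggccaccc
CAGGTG was found 1 time for Cd3d, 2 times for Cd3g, 0 times for Cd3e and 1 time for Cd79a, and AGGAAG 1, 0, 2 and 1 times. Among 32851 RefSeq promoter windows of that length, 17.22% held CAGGTG and 29.48% held AGGAAG, and a match is a string of letters, not a bound site. The remaining members lie on chromosome 6 (Cd4, 124864692 to 124888221, and Cd8a, 71373427 to 71379173), chromosome 4 (Lck, 129548344 to 129573641), chromosome 11 (Cd79b, 106311341 to 106314762) and chromosome 19 (Ms4a1, 11249675 to 11266241). All 9 are protein-coding, and none shared annotated exon sequence with another gene of the table.

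All 9 genes were detected in every library, at low levels. In normalized counts, the linear unit of the deposited table, the lowest, median and highest of the 16 libraries were 37.5, 84.1 and 115 for Lck, and 29.0, 52.0 and 75.2 for Cd4. They were 19.3, 32.8 and 63.4 for Cd3g, 13.5, 25.3 and 53.0 for Cd3e and 6.81, 22.0 and 46.6 for Cd3d. Cd79b lay at 14.7, 33.8 and 51.3, Cd8a at 2.7, 13.2 and 79.6, Cd79a at 0.943, 11.0 and 29.7, and Ms4a1 at 0.886, 10.1 and 19.3. Per kilobase of annotated exon, the mean level over the 16 libraries was highest for Lck (28.4 ± 7.85, SD), followed by Cd79b (23.0 ± 7.20), Cd3d (13.6 ± 6.40), Cd4 (13.0 ± 3.21) and Cd3g (11.0 ± 3.99). Cd79a (9.21 ± 4.92), Cd3e (7.05 ± 2.81), Cd8a (5.09 ± 4.90) and Ms4a1 (1.71 ± 0.849) came next. Of neighbours in that order, Cd8a exceeded Ms4a1 in 15 of 16 libraries, Cd79b exceeded Cd3d and Cd3e exceeded Cd8a in 14 each, and Lck exceeded Cd79b and Cd4 exceeded Cd3g in 12 each. Cd3g exceeded Cd79a, and Cd79a exceeded Cd3e, in 10 libraries each, and Cd3d exceeded Cd4 in 7, so these neighbours did not differ beyond their spread. Exon length here merges all annotated transcripts, which lowers the value of genes with long variants.

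The lymphocyte transcripts were a small share of the tissue's RNA. The 6 T cell genes summed to 118.8 to 378.5 normalized counts and the 3 B cell genes to 19.5 to 97.4, against 713255 to 950700 for 7 adipocyte genes and 31245 to 75860 for 10 macrophage genes. Adipoq, the adiponectin gene and a defining marker of fat, stood at 78008 to 97146. A threshold of 24.49 normalized counts, which scales with the median library total, in at least 4 libraries decided which genes entered the main test, and 6 members passed it. Cd8a exceeded it in 3 libraries, Cd79a in 1 and Ms4a1 in 0. These 3 were therefore tested in a second fit of all 16091 genes. That fit was planned as an alternative, while its use for these 3 genes was chosen after seeing that they were left out. Its combinations with the other alternatives were also added later. The sum over all genes of a library was 24.02 to 28.15 (1e6 normalized counts).

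T cell genes varied together from library to library and did not separate the 4 groups. Across the 16 libraries the 15 pairs of T cell genes had r = 0.348 to 0.844 on the log2 scale, with a median of 0.649. The deviations from group means gave a median of 0.692, so the common movement was present within groups. The highest were Cd3d with Cd3g (0.844), Cd4 with Lck (0.826), Lck with Cd3d (0.821) and with Cd3g (0.821), and Cd3e with Cd3g (0.817). Within groups Cd4 with Lck was highest (0.868), and Cd3e was looser with Cd3d (0.652 over all libraries). The 3 pairs of B cell genes had r = 0.581 to 0.767. Within groups these were between -0.019 and 0.577. The 18 pairs of a T cell and a B cell gene had r = 0.004 to 0.521 (median 0.253), and -0.101 to 0.607 within groups. The highest of these was Cd4 with Cd79b on both measures, within the range of the T cell pairs. These are descriptions over libraries that share their normalization, and they carry no p-value.

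**Figure D1:**
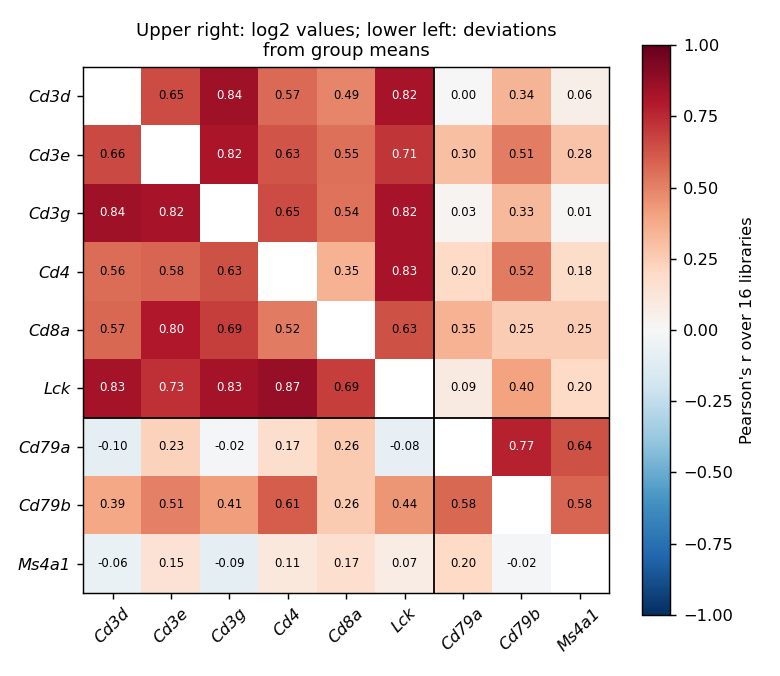
Heat map of Pearson's r between the 9 genes over 16 libraries, from log2(value + 1) in the upper right and from deviations from group means in the lower left, with lines dividing T cell from B cell genes. The T cell block is red on both sides of the diagonal (0.348 to 0.844 and 0.517 to 0.868), while the T-to-B blocks run from 0.004 to 0.521 and from -0.101 to 0.607, both highest for Cd4 with Cd79b.

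The CD3 chains carry the signal of the T cell receptor into the cell. Cd3d had 18.9, 37.2, 6.81 and 46.6 normalized counts in untreated control-diet replicates 1 to 4 and 40.3, 27.7, 24.1 and 14.6 in the antibody libraries of that diet. On the high-fat diet it had 19.7, 17.99, 22.5 and 19.6 without antibody and 24.6, 43.2, 9.51 and 21.5 with it. The groups overlapped throughout, and the lowest and highest values of Cd3d were both in untreated control-diet libraries (replicates 3 and 4). Cd3g had 30.3, 36.98, 19.3 and 63.4, then 55.3, 49.3, 28.6 and 29.0 on the control diet, and 35.2, 38.95, 36.3 and 20.7, then 29.8, 53.0, 21.1 and 29.0 on the high-fat diet. Cd3e had 24.6, 38.1, 18.9 and 39.6, then 42.6, 42.1, 27.4 and 25.9, followed by 34.1, 24.7, 18.6 and 13.5 and by 15.5, 53.0, 20.2 and 21.4 in the same order of groups. For all 3 chains every pair of groups overlapped, and log2 changes lay between -0.44 and 0.21 over the 4 pairwise comparisons, with standard errors of 0.361 to 0.515. With antibody on the high-fat diet the changes were 0.12 ± 0.51 for Cd3d, 0.18 ± 0.38 for Cd3e and -0.02 ± 0.36 for Cd3g (SE; limma adjusted p = 0.947, 0.888 and 0.985).

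**Figure D2:**
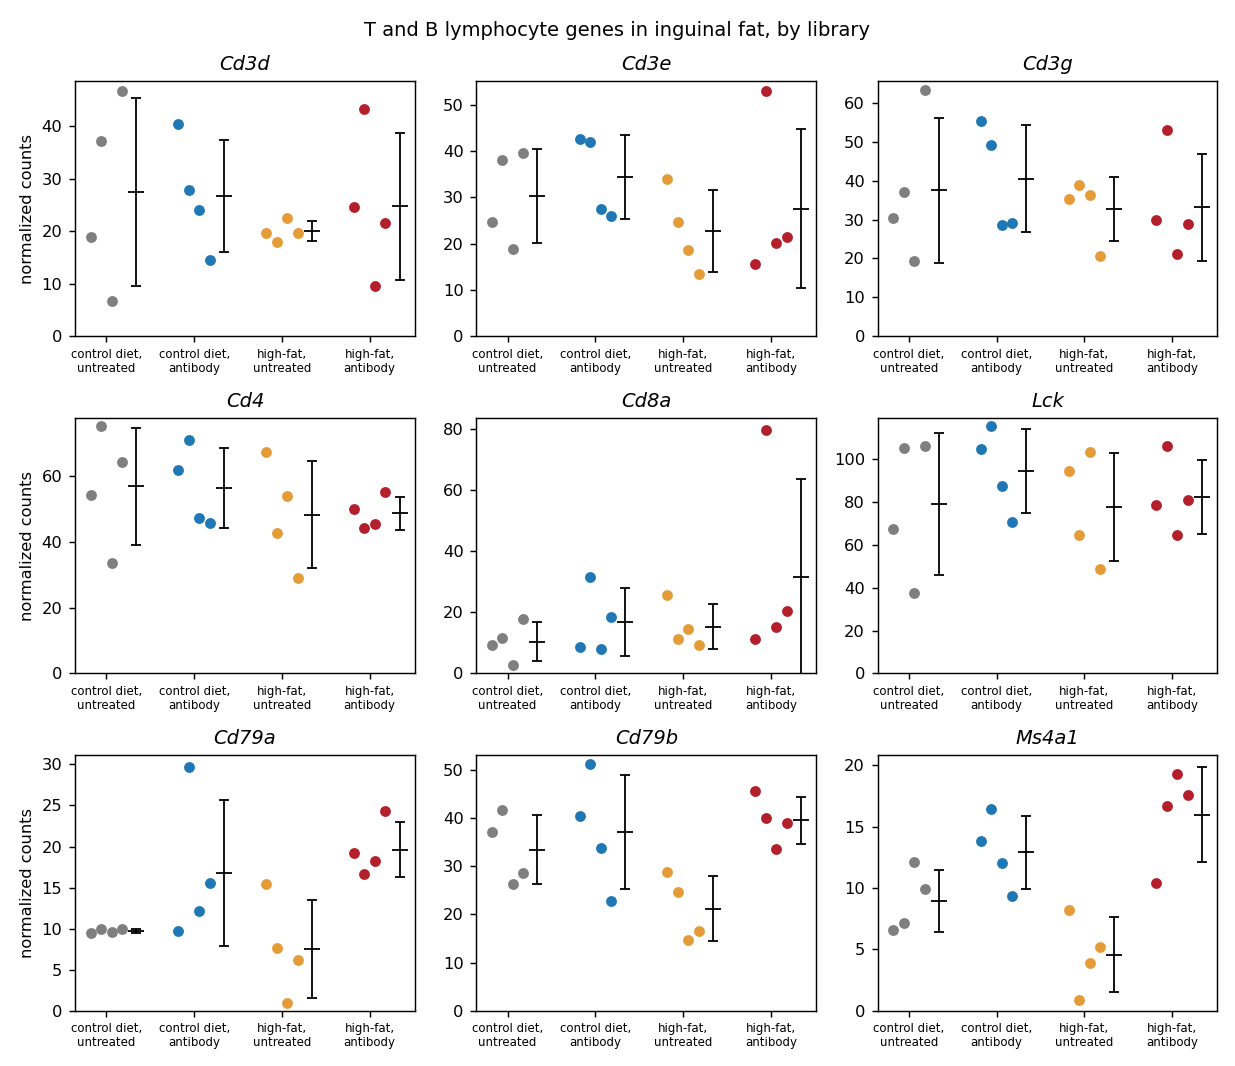
Normalized counts of each gene in every library, on linear axes from 0; points are replicates 1 to 4 from left to right within a group, and the black dash with bar is the group mean ± SD (n = 4), cut at 0 for Cd8a. The 3 B cell genes in the bottom row show all 4 antibody high-fat points above all 4 untreated high-fat points, and the T cell genes overlap between groups.

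Lck, the kinase that phosphorylates the CD3 chains, was the most abundant T cell member. It had 67.4, 105, 37.5 and 106 normalized counts without antibody and 104, 115, 87.4 and 70.4 with it on the control diet. On the high-fat diet it had 94.2, 64.4, 103 and 48.6 without antibody and 78.3, 106, 64.5 and 80.7 with it. Its group means were 78.9 ± 33.0, 94.3 ± 19.6, 77.5 ± 25.4 and 82.3 ± 17.2 (SD, n = 4), and no pair of groups was separate. The antibody change was 0.34 ± 0.31 on the control diet (limma adjusted p = 0.733) and 0.12 ± 0.31 on the high-fat diet (0.912).

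The co-receptors differed from each other. Cd4 had 54.1, 75.2, 33.6 and 64.3 normalized counts without antibody and 61.8, 70.8, 47.1 and 45.5 with it on the control diet. On the high-fat diet it had 67.2, 42.6, 53.9 and 29.0 without antibody and 50.0, 44.0, 45.3 and 55.1 with it. It had the narrowest range of the members, 2.59-fold from lowest to highest library, and log2 changes of -0.24 to 0.07 over the pairwise comparisons. Cd8a had 9.47, 11.8, 2.7 and 17.8, then 8.68, 31.7, 7.86 and 18.6 on the control diet, and 25.8, 11.3, 14.7 and 9.35, then 11.4, 79.6, 15.3 and 20.4 on the high-fat diet. Its log2 changes were 0.63 to 0.68 in each pairwise comparison, each with a standard error of 0.61 and limma adjusted p of 0.519 or more. The antibody high-fat replicate 2 stood alone, with the ratio of Cd4 to Cd8a at 0.554 against 2.23 to 12.5 in the other libraries. Cd8b1, which codes for the partner chain of CD8a and was chosen after its values were seen, had 17.6 normalized counts in that library, below the 23.5 of antibody control-diet replicate 2.

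B cell genes were higher with antibody on the high-fat diet in every library, but did not pass the threshold there. Cd79b, a signalling chain of the B cell receptor, had 28.9, 24.7, 14.7 and 16.6 normalized counts in the untreated high-fat libraries and 45.6, 40.1, 33.7 and 39.1 in the antibody libraries. Its partner Cd79a had 15.4, 7.58, 0.943 and 6.21 without antibody and 19.2, 16.6, 18.3 and 24.4 with it. Ms4a1, the gene of the B cell surface protein CD20, had 8.23, 0.886, 3.91 and 5.16 without antibody and 10.4, 16.7, 19.3 and 17.6 with it. For each of the 3 genes all 4 antibody libraries lay above all 4 untreated ones, with the nearest values 16.6 and 15.4 for Cd79a, 33.7 and 28.9 for Cd79b and 10.4 and 8.23 for Ms4a1. Among all genes 3.91% of those tested, and 3.76% of the whole table, had all antibody libraries higher in this comparison. The ratios of group means were 1.87 for Cd79b, 2.60 for Cd79a and 3.51 for Ms4a1.

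The log2 changes with antibody on the high-fat diet were 0.91 ± 0.26 for Cd79b (limma, adjusted p = 0.160), 1.62 ± 0.49 for Cd79a (0.172) and 1.79 ± 0.40 for Ms4a1 (0.0821). None of the 9 members was called, where 0.0775% of the genes tested and 0.0684% of the whole table were. The median change was 1.62 over the 3 B cell genes and 0.12 over the 6 T cell genes, of which 5 were positive, against 0.00026 over all genes tested. At an unadjusted p under 0.05 stood the 3 B cell genes and none of the T cell genes, with 13.5% of the genes tested. Without untreated high-fat replicate 1, the untreated library with the highest B cell values, Cd79a (2.05, adjusted p = 0.0409) and Ms4a1 (2.11, 0.0219) passed and Cd79b did not (1.07, 0.0574). That library's removal raised the count of genes called from 11 to 271. Without untreated high-fat replicate 3, which had the lowest Cd79a, that gene was at 1.02 (limma adjusted p = 0.379). A pseudocount of 10 in place of 1 gave 0.81 for Cd79a and 0.85 for Ms4a1, neither past the threshold. The lowest values of Cd79a and Ms4a1 were near the spacing of low values in their libraries (0.978 and 0.947 normalized counts), which is about what 1 read was worth. Fewer B cells and less of these transcripts per cell cannot be told apart in RNA of whole tissue, and the same holds for the T cell genes.

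**Figure D3:**
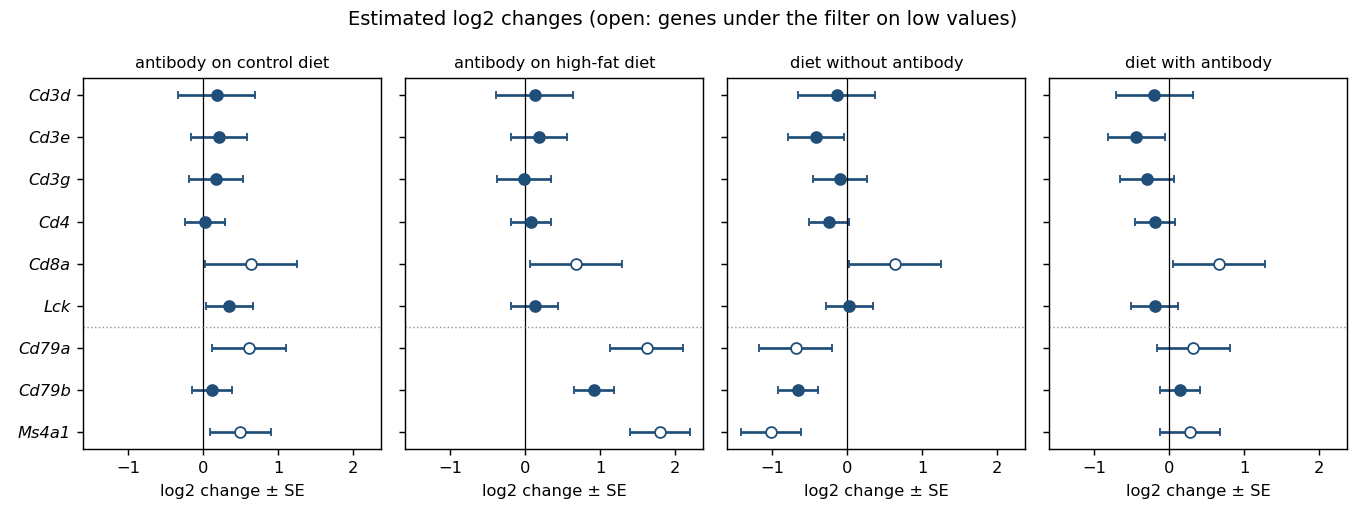
Log2 change ± SE from limma for each gene in 4 comparisons of groups (4 libraries each), with T cell genes above and B cell genes below the dotted line; open circles are genes under the threshold on low values. In the panel for the antibody on the high-fat diet the B cell genes lie at 0.91 to 1.79 and the T cell genes at -0.02 to 0.68.

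Markers of other tissues and cells were read in the same 2 high-fat groups. Among all genes tested 0.0775% were called in this comparison, so a count of 0 in a list is near that background. The 10 macrophage genes summed to 41107 to 75860 normalized counts without antibody and 44480 to 54219 with it, and 0 of the 10 passed. The 7 skeletal muscle genes summed to 5141 to 464168 without antibody and to 149 to 7586 with it, and 0 of 7 passed. Changes were positive for 0 of the 10 macrophage genes (median log2 change -0.28) and 0 of the 7 muscle genes (median -5.13). The 6 genes of lymphatic endothelium summed to 2352 to 6820 without antibody and 2505 to 2786 with it, and 0 of the 5 tested passed; Lyve1, a hyaluronan receptor of lymphatic vessels and some macrophages, was at -0.90 ± 0.32 (limma adjusted p = 0.222). Of 8 genes of lymph node stroma and its high endothelial venules, 4 had values (Ccl19, Madcam1, Cxcl13 and Fut7), 1 of them above the threshold, and Ccl21a, Glycam1, Chst4 and Tnfsf11 are not analysed here. Their sum was 124 to 1469 without antibody and 142 to 270 with it. It was nearly all Cxcl13, a B cell attractant, which had 103, 449, 794 and 1439 without antibody and 222, 104, 191 and 174 with it (-1.52 ± 0.58, limma adjusted p = 0.254). The untreated library with the lowest Cxcl13 was thus replicate 1, the one with the highest B cell genes. Ccl19 and Madcam1, which mark the T cell zone and some venules, lay at 2.56 to 18.5 and 1.83 to 23.3 over all libraries. Whether these tissues have a part in the B cell values was not tested.

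On the control diet the groups with and without antibody overlapped for all 9 members. Cd79b had 37.1, 41.7, 26.3 and 28.7 normalized counts without antibody and 40.5, 51.3, 33.9 and 22.8 with it (0.11 ± 0.26, limma adjusted p = 0.918). Cd79a was close to constant without antibody, at 9.49, 9.93, 9.61 and 9.89, and had 9.73, 29.7, 12.1 and 15.5 with it (0.61 ± 0.49, adjusted p = 0.704). Ms4a1 had 6.61, 7.16, 12.1 and 9.90 without antibody and 13.9, 16.4, 12.1 and 9.34 with it (0.49 ± 0.40, adjusted p = 0.707). The changes of all 9 members were positive, from 0.02 for Cd4 to 0.64 for Cd8a, and none passed, where 0.0987% of the genes tested and 0.087% of the whole table did. The antibody control-diet replicate 2 had the highest value of all 3 B cell genes in its group.

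The high-fat diet without antibody went with lower B cell genes that did not pass the threshold. The changes were -0.66 ± 0.26 for Cd79b (limma adjusted p = 0.111), -1.02 ± 0.40 for Ms4a1 (0.114) and -0.69 ± 0.49 for Cd79a (0.367), and each gene's groups overlapped. Without untreated high-fat replicate 1 Ms4a1 passed (-1.33, adjusted p = 0.0422). The T cell genes ranged from -0.41 for Cd3e to 0.63 for Cd8a. None of the 9 members was called, where 8.15% of the genes tested and 6.39% of the whole table were. With antibody in both groups, the diet changes of the B cell genes were positive and small, at 0.14 ± 0.26 for Cd79b, 0.32 ± 0.49 for Cd79a and 0.28 ± 0.40 for Ms4a1, and none of the members was among the 0.00705% of genes called (0.0124% of the whole table). Both comparisons share groups with the antibody comparisons. Low values in the untreated high-fat libraries enter the diet change without antibody and the antibody change on the high-fat diet alike.

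The difference between the antibody changes on the 2 diets was itself tested as an interaction. It was 0.80 ± 0.37 for Cd79b (limma adjusted p = 0.808), 1.30 ± 0.57 for Ms4a1 (0.749) and 1.01 ± 0.69 for Cd79a (0.867). The T cell genes lay between -0.22 and 0.05. None of the members was called and 0% of the genes tested were (0% of the whole table), while 6.18% of those had an unadjusted p under 0.05, as did Cd79b and Ms4a1. A difference between diets in the response of the B cell genes was therefore not shown.

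Averaged over both diets, Ms4a1 was the member with a call. It rose with the antibody by 1.14 ± 0.28 (limma adjusted p = 0.0491), where 2.18% of the whole table were called. The call was lost in 13 of the 16 fits that left out 1 library and held without replicate 3 of the untreated control-diet group and without replicates 1 and 2 of the untreated high-fat group (adjusted p from 0.0201 to 0.102 over all alternatives). It was also lost with a pseudocount of 0.1, quantile normalization, no variance trend and the replicate block, and a pseudocount of 10 gave 0.56 (adjusted p = 0.0321). Cd79a was at 1.11 ± 0.35 (adjusted p = 0.113, and 0.0354 without untreated high-fat replicate 1) and Cd79b at 0.51 ± 0.19 (0.170), where 2.52% of the genes tested were called. The T cell genes ranged from 0.05 for Cd4 to 0.66 for Cd8a, all 6 positive and none called. For the diet averaged over antibody, 8 of the 9 members were negative, Cd8a being the exception (0.65 ± 0.43). None was called (limma adjusted p from 0.254), where 19.4% of the genes tested and 16.9% of the whole table were.

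The balance of B to T cell genes overlapped in each comparison of diet or antibody. The sum of the B cell genes divided by that of the T cell genes was 0.190, 0.166, 0.0784 and 0.198 in the untreated high-fat libraries and 0.358, 0.194, 0.405 and 0.355 in the antibody libraries. Antibody replicate 2, the lowest of its group, had the highest T cell sum of all libraries (378.5). On the control diet the ratio was 0.260, 0.193, 0.404 and 0.144 without antibody and 0.205, 0.289, 0.261 and 0.234 with it. All 4 untreated high-fat libraries lay below all 4 antibody control-diet libraries, which differ from them in both diet and antibody. The B cell sum was 33.3 ± 14.0 in untreated and 75.2 ± 4.17 in antibody high-fat libraries, and the T cell sum 216.5 ± 59.5 and 248.0 ± 89.7 (SD, n = 4). The means of the log2 values of the T and the B cell genes had r = 0.293 and rho = 0.321 over 16 libraries. That r was 0.235 within groups, and 0.286 without the 2 libraries farthest from the median of the T cell mean.

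**Figure D4:**
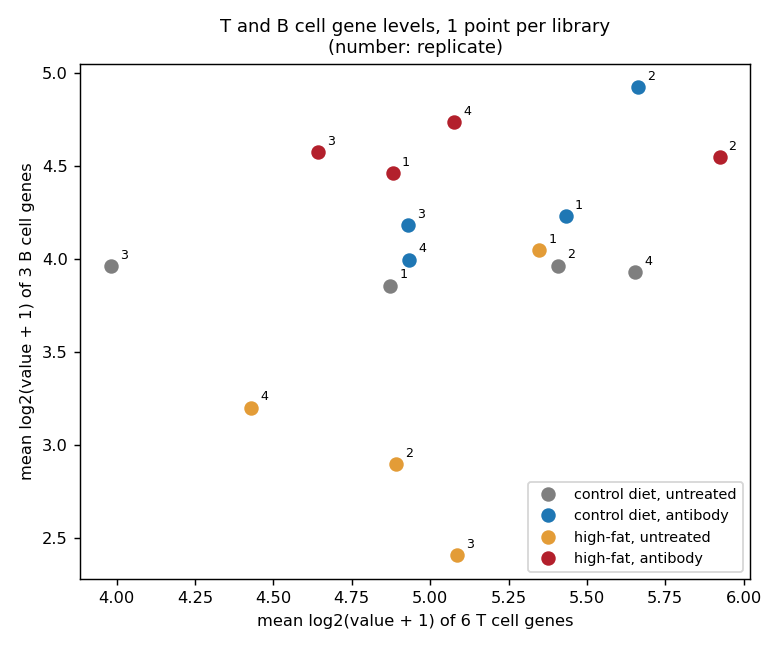
Mean log2(value + 1) of the 6 T cell genes against that of the 3 B cell genes, 1 point per library with its replicate number. The untreated high-fat replicates 2, 3 and 4 are lowest on the B cell axis (2.90, 2.41 and 3.20) and the antibody high-fat libraries lie at 4.46 to 4.73, while T cell means of the 4 groups interleave between 3.98 and 5.92.

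Of 24 other genes of the T cell receptor and of T cell identity, 21 had values and 16 were tested. With antibody on the high-fat diet 0 rose and 0 fell, with a median change of -0.09, and the same counts held on the control diet (median 0.37) and for the diet without antibody. Over all genes tested 0.0775%, 0.0987% and 8.15% were called in these comparisons, so counts of 0 among 16 genes are near that background. Cd247, which codes for the zeta chain of the receptor complex and shares exon sequence with Pou2f1 on the opposite strand, had 61.3 to 84.1 normalized counts without antibody and 87.9 to 100 with it on the control diet (0.41 ± 0.24, limma adjusted p = 0.537). Cd6 and Prkcq also had separate antibody libraries there, among 3.43% of the genes tested with all antibody libraries higher. The receptor of interleukin 7, Il7r, was the 1 gene of the list with a call: it rose with the diet averaged over antibody (0.90 ± 0.29, adjusted p = 0.0396), where 19.4% of the genes tested were called.

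In the list of other B cell genes, 21 in number with 16 measured and 9 tested, Cd180 moved with the antibody. Cd180, a Toll-like receptor homologue of B cells and other leukocytes, had 186, 107, 129 and 113 normalized counts without antibody and 247, 230, 266 and 227 with it on the control diet. On the high-fat diet it had 156, 171, 160 and 160 without antibody and 319, 254, 325 and 225 with it, so the antibody libraries lay higher on both diets. It rose by 0.89 ± 0.16 on the control diet (limma adjusted p = 0.0454) and by 0.83 ± 0.11 over both diets (0.00247). Of all genes tested 0.0987% and 2.52% were called in these comparisons. On the high-fat diet Cd180 was at 0.77 ± 0.16 (0.0638). Cd180 shares exon sequence with Mast4 on the opposite strand, and nothing read here says whether counting used strand, so its value is uncertain. It was also far above the B cell members in level.

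Fcmr, the receptor for IgM, was named after its values were seen. It had 8.22, 0, 2.93 and 5.15 normalized counts without antibody and 13.0, 9.77, 10.6 and 19.5 with it on the high-fat diet (1.83 ± 0.57, limma adjusted p = 0.182). All 4 antibody libraries of Fcmr lay above the untreated ones, as they did for Spib and Cd180 of the same list.

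The immunoglobulin genes overlapped between the 2 high-fat groups. Ighm, the heavy chain of IgM, was the most abundant of them at 1651 to 10576 normalized counts and was at 0.00063 ± 0.45 with antibody on the high-fat diet (limma adjusted p = 0.9999). Ighd, the heavy chain that marks mature B cells, was at 0.60 ± 0.29 (0.384). Igkc, the kappa light chain, fell with the diet averaged over antibody (-1.28 ± 0.33, limma adjusted p = 0.0189), where 19.4% of the genes tested were called. Without antibody it had 71.2 to 162 normalized counts on the control and 15.9 to 76.2 on the high-fat diet (-1.50 ± 0.47, limma adjusted p = 0.0585). With antibody it had 94.7 to 420 on the control and 58.7 to 112 on the high-fat diet. Of 8 plasma cell genes 4 had values and 3 were tested, and 0 passed in any comparison. Over all genes tested 0% to 19.4% were called, depending on the comparison, so 0 among 3 genes is near that background.

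Among genes of T cell subsets, 1 passed the threshold with the diet in mice without antibody, where 8.15% of the genes tested were called. In that list of 15 genes, 10 had values and 6 were tested. Il1rl1, the receptor of interleukin 33, rose by 0.98 ± 0.26 (limma adjusted p = 0.0400). With antibody on the high-fat diet 0 genes of the list passed, where 0.0775% of the genes tested were called. Over the same diet comparison without antibody the pan-leukocyte gene Ptprc rose by 0.45 ± 0.12 (0.0409) and the macrophage gene Cd68 by 0.76 ± 0.20 (0.0400). Their part in the diet values of the lymphocyte genes was not tested.

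The genes most like the T cell members across libraries were mostly other T and natural killer cell genes. Of the genes tested outside the members, Trbc2, a constant region of the T cell receptor beta chain, had r = 0.964 with the mean log2 of the T cell members over 16 libraries. It was followed by Ccl5 (0.872), Trbc1 (0.868), Il2rb (0.866), Wdr86 (0.850), Nkg7 (0.842), Ctsw (0.826) and Ptprcap (0.820). Trbc1 and Trbc2 are near-identical copies, and reads could be split between them. The mean of 9 natural killer and gamma-delta T cell genes had r = 0.722 with the T cell mean, and 0.666 without the 2 farthest libraries. The genes most like the mean of the B cell members were none of the B cell list: Wdr6 (0.940), Hmgb3 (0.913), Pou6f1 (0.886), Ago1 (0.883), 2810403D21Rik (0.860), Zmym3 (0.847), Whrn (0.847) and Agbl5 (0.846). Wdr6 stood at 891 to 1949 normalized counts and shares exon sequence with Dalrd3 on the opposite strand. Its rise in the antibody libraries of the high-fat diet was 0.72 (limma adjusted p = 0.0352). With 3 B cell members at low values, r describes these 16 libraries.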

How the data were processed

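The authors deposited 1 table of normalized counts by its name, a linear signal for 16091 genes in 16 libraries, each sequenced on 2 lanes per the labels. The submitters' processing notes name STAR 2.7.0e, limma 3.42.2, fastp 0.20.1, Subread 1.6.2 and featureCounts and the builds mm10 and GRCm38, with no order; the normalization is not stated. Values between 0.5 and 15 lay within 0.15 of whole multiples of 1 step in 31.8% to 100% of cases per column (30% if evenly spread). For untreated high-fat replicates 2 and 3 this was 97.6% and 100%. Whole reads were thus not recovered in every column, no count model was run and depth is unknown.

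Values were taken as log2(value + 1), which understates changes of low genes, and 14189 genes above 24.49 in at least 4 libraries were fitted with limma 3.58.1 in R 4.3.3 (variance trend, 4 group means, two-sided, Benjamini-Hochberg over all genes, threshold 0.05). The 3 low members came from the same fit without filter. The fit was tested on simulated data. Coordinates and exon lengths are from GENCODE vM21 and promoters from RefSeq, which matched 6 of the 9 members. Members and lists were chosen with earlier results of these data known. Named genes are all members, from each list those past the threshold and then the highest up to 4, and the 8 most like each member mean; others are marked as chosen after their values were seen. Alternatives changed the pseudocount, filter, scaling, variance trend, replicate block and libraries. Replicate numbers did not pair libraries (r of deviations -0.539 to 0.487 over 24 same-number pairs, 10 over 0.1). Some results for genes of the lists are not reported here.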

Additional observations from a re-analysis of the deposited data

Results flagged for a closer look

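Antibody high-fat replicate 2 lay far above the other libraries of its group in 2 T cell genes. Cd3e had 53.01 normalized counts there against 15.5 to 21.4 in the other libraries of the group, and Cd8a had 79.56 against 11.4 to 20.4. Of 36 sets of 4 libraries examined, 2 held a library this far apart, where chance gives about 1 in 20, or 1.8. The same library had the highest Trbc2, at 78.4 normalized counts, while its Cd4 (44.0) was the lowest of its group.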

How the results depend on the processing

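Of 1527 recomputed log2 changes of the members, 98 changed sign, all of them for values not called, 21 changed side of the threshold, and 0 called changes reversed. The 3 B cell genes stayed positive for the antibody on the high-fat diet, with adjusted p of 0.0409 to 0.379 for Cd79a, 0.0574 to 0.400 for Cd79b and 0.0219 to 0.268 for Ms4a1 with each library left out. Averaged over diets, 1 member (Ms4a1) was called with no filter on low values. Counts of all genes called moved more, and the cause was not tested. For the diet without antibody (1157) they were 726 with no variance trend and 0 with only the groups compared, 0 without the 2 doubted libraries (replicate 3 of the untreated control-diet and replicate 2 of the untreated high-fat group), and 0 to 4119 with each library left out. For the antibody on the control diet (14) they were 3 with no trend, 0 with only the groups compared, and 0 to 86 with each library left out. On the high-fat diet (11) they were 4 with only the groups compared and 1 to 271. For the diet with antibody (1) they were 2 with no filter, 4 after scaling to the column total, 298 without the 2 doubted libraries, 641 with only the groups compared and 0 to 239. The interaction (0) gave 0 to 1, the antibody averaged (358) 144 to 533, and the diet averaged (2757) 1562 without the 2 doubted libraries and 1593 to 4721. The replicate block, whose numbers do not pair the libraries, gave 0 genes for the diet without antibody, 2 and 2 for the antibody on the control and high-fat diets, 0 for the diet with antibody, 1 for the interaction, 123 for the antibody averaged and 1498 for the diet averaged. The averaged call of Ms4a1 ended with the block (adjusted p = 0.102), a pseudocount of 0.1, quantile normalization and no variance trend, which are 4 of the 7 alternatives other than leaving out 1 library. A library correlated best with its own number in 13 of 48 cases. Levels of Ms4a1, Cd79a and Cd8a rest on few reads, which limits their precision.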
